A study of Mus musculus with 6 samples.

Results

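The cytosolic ribosomal protein genes were taken as every gene of the deposited expression table whose symbol is Rpl or Rps followed by a number and at most 1 of the letters a, x or l, together with Rplp0, Rplp1, Rplp2 and Rpsa. Symbols ending in -ps, which mark pseudogenes, were left out. The rule found 83 of the 35274 genes in the table, of which 51 belong to the large and 32 to the small ribosomal subunit. Of these, 78 passed a filter of 1 TPM or more on average and were tested, 46 of the large and 32 of the small subunit. The other 5 were Rpl3l, Rpl10l and Rpl39l, near 0, and Rpl6l and Rpl32l, listed at 0 in every library.

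The libraries came from dissected dentate neuroepithelium of mice labelled E14, the ventricular wall from which the dentate gyrus of the hippocampus grows. There were 2 wild type libraries (labelled WT), 2 of SOX11f/+ mice (labelled HTZ, haplodeficient) and 2 of SOX11f/f mice (labelled HOMO, homodeficient), where f is a floxed allele of the transcription factor gene Sox11. A floxed allele is deleted only where Cre recombinase acts, and the Cre driver is not given in the sources used here. Whether the 2 libraries of a genotype derive from different embryos is not stated either, and every p-value below therefore reflects variation among 6 libraries only, possibly technical variation.

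Ribosomes are built from a large and a small subunit, each of ribosomal RNA and many proteins, and most of these proteins are present in a single copy per ribosome. Their mRNAs are short and among the most abundant of any cell, most start with a run of pyrimidines that puts their translation under control of growth signalling, and dividing progenitors need them for making new ribosomes. Mammalian genomes also hold many processed pseudogenes of these genes, which are intronless copies made from spliced mRNA and often nearly identical to it. Reads of a spliced transcript can match such a copy as well as the gene.

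The transcripts that carry the main finding are those of Rps7, Rps13 and Rps18, small subunit proteins, and of their nearest copies, so the stretches where gene and copy differ are shown first. All are coding bases in the sense direction from GENCODE vM21 on GRCm38, counted from 1 at the A of the start codon, with the differing bases in capitals. Rps7 (ENSMUSG00000061477.4, chr12:28630854-28635953, minus strand) and Gm6472 (chr X, a transcribed processed pseudogene) were 99.4% identical over 651 bases, with 3 coding differences, T26G, G48A and G123T (the gene's base, the position, the copy's base). Bases 16 to 133 hold all 3:
Rps7: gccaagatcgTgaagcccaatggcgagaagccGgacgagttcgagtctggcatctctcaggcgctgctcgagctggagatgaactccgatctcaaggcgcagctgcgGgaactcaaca
Gm6472: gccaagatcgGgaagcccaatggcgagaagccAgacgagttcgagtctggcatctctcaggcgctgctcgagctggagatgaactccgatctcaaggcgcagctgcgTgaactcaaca
Rps13 (ENSMUSG00000090862.3, chr7:116331505-116334195, minus strand) and Rps13-ps1 (chr 8, a processed pseudogene) were 99.6% identical over 522 bases and differed at T411C and A429G, within bases 401 to 439:
Rps13: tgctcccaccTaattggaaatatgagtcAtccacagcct
Rps13-ps1: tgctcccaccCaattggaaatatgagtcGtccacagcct
Rps18 (ENSMUSG00000008668.14, chr17:33951999-33956001, minus strand) and Gm10260 (chr 13, annotated as protein-coding) were 99.1% identical over 545 bases and differed at 4 coding bases, of which A337C, G371A and G431A lie in bases 327 to 441:
Rps18: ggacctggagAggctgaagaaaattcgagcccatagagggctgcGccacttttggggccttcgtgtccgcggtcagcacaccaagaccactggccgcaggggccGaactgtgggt
Gm10260: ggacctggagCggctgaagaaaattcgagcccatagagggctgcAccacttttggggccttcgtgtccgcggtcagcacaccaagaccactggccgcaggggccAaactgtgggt

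Rps7, whose protein joins the small subunit and also binds the p53 regulator Mdm2, was the only one of the 78 tested genes past the threshold when all 6 libraries were fitted. It measured 1919 and 1958 TPM in WT, 1726 and 1738 TPM in HTZ and 1014 and 1009 TPM in HOMO libraries. The unit TPM expresses abundance per transcript length as a part of the library total. The 3 genotypes did not overlap, and the libraries within a genotype lay close together. The HOMO level fell by 0.94 (SE 0.09) on the log2(TPM + 1) scale, with a limma adjusted p of 0.0458 (Benjamini-Hochberg, 14518 genes). Of all genes tested, 0.0207% were called lower in this comparison. The HTZ difference from WT was -0.16 (SE 0.09, limma adjusted p = 0.443), and the HOMO difference from HTZ was -0.78 (SE 0.09, limma adjusted p = 0.304).

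Its copy Gm6472 went the other way. It was at 0.03 and 1.95 TPM in WT, 767 and 824 TPM in HTZ and 1656 and 1601 TPM in HOMO libraries. It rose in HTZ (log2 difference 8.84, SE 0.42, limma adjusted p = 0.0017) and in HOMO libraries (9.87, SE 0.42, limma adjusted p = 0.00082). The share of the combined TPM of Rps7 and its copies that was listed under copies was 0.2% and 0.4% in WT, 30.9% and 32.2% in HTZ, and 62.1% and 61.4% in HOMO libraries. When gene and copies were added, WT libraries had 1923 and 1965 TPM, HTZ 2498 and 2564 TPM, and HOMO 2673 and 2612 TPM. The HOMO difference then had the opposite sign, 0.44 (SE 0.09, limma adjusted p = 0.105), and so did the HTZ one, 0.38 (SE 0.09, limma adjusted p = 0.236). Since TPM is scaled by transcript length, such sums also depend on the lengths used for gene and copy. That dependence was not tested. Over 18 alternative settings the limma adjusted p of Rps7 in HOMO libraries ran from 0.0011 to 0.458. It was 0.458 without WT library 1, 0.133 without WT library 2, 0.215 without HOMO library 1 and 0.315 without HOMO library 2, and 0.0769 with TMM rescaling, so the call was lost while the log2 difference stayed between -0.95 and -0.87. Rps7 lies on chromosome 12, as Sox11 does, with 1.29 Mb between the genes. Sox11 itself was at 192 and 130 TPM in WT, 56.1 and 50.1 TPM in HTZ and 5.23 and 5.06 TPM in HOMO libraries.

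Rps13, another small subunit protein, was at 36.5 and 23.8 TPM in WT, 1308 and 1035 TPM in HTZ, and 20.9 and 410.5 TPM in HOMO libraries. Its HTZ libraries stood far above the other 4, and the HOMO libraries lay apart from each other. The HTZ difference was 5.26 (SE 1.17, limma adjusted p = 0.219), with a range of 4.1e-15 to 0.843 for this adjusted p over 18 alternatives; it was 0.00207 without HOMO library 1 and 0.00268 without HOMO library 2. Rps13-ps1 was the mirror image, with 1197 and 1069 TPM in WT, 11.5 and 9.67 TPM in HTZ and 1263 and 744 TPM in HOMO libraries. It was called lower in HTZ than in WT libraries (-6.61, SE 0.24, limma adjusted p = 0.00047) and higher in HOMO than in HTZ ones (6.39, SE 0.24, limma adjusted p = 0.00059). With all copies added, the 6 libraries ran from 1094 to 1327 TPM, the genotypes overlapped, and the HTZ difference was 0.06 (SE 0.13, limma adjusted p = 0.843). The highest library exceeded the lowest 62.5-fold for Rps13 alone and 1.21-fold with copies added.

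Rps18, of the small subunit head, was also divided with its copies, with single libraries far from the rest; it was singled out after its values were seen. It was at 897 and 61.2 TPM in WT, 1034 and 1829 TPM in HTZ, and 1027 and 959 TPM in HOMO libraries. The genotypes did not overlap, with WT lowest and HTZ highest, and the differences from WT were 2.54 (SE 1.08, limma adjusted p = 0.358) in HTZ and 2.07 (SE 1.08, limma adjusted p = 0.352) in HOMO libraries. Gm10260 was at 798 and 1361 TPM, 842 and 0.74 TPM, and 819 and 745 TPM in the same order, so WT library 2 and HTZ library 2 stood at opposite ends. Gm11361, a second protein-coding copy, was at 277 TPM in WT library 2, 9.37 TPM in HTZ library 2 and 120 to 154 TPM elsewhere. Copies held 96.4% of the combined TPM in WT library 2, 0.5% in HTZ library 2 and 48.2% to 50.7% in the other 4. With copies added, Rps18 lay between 1707 and 2038 TPM in every library, the HTZ and HOMO libraries overlapped, and the differences from WT were 0.14 and 0.13 (both SE 0.10). Of all members, Rps7, Rps13 and Rps18 were those whose copy share spanned more than 20 percentage points over the libraries.

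**Figure D1:**
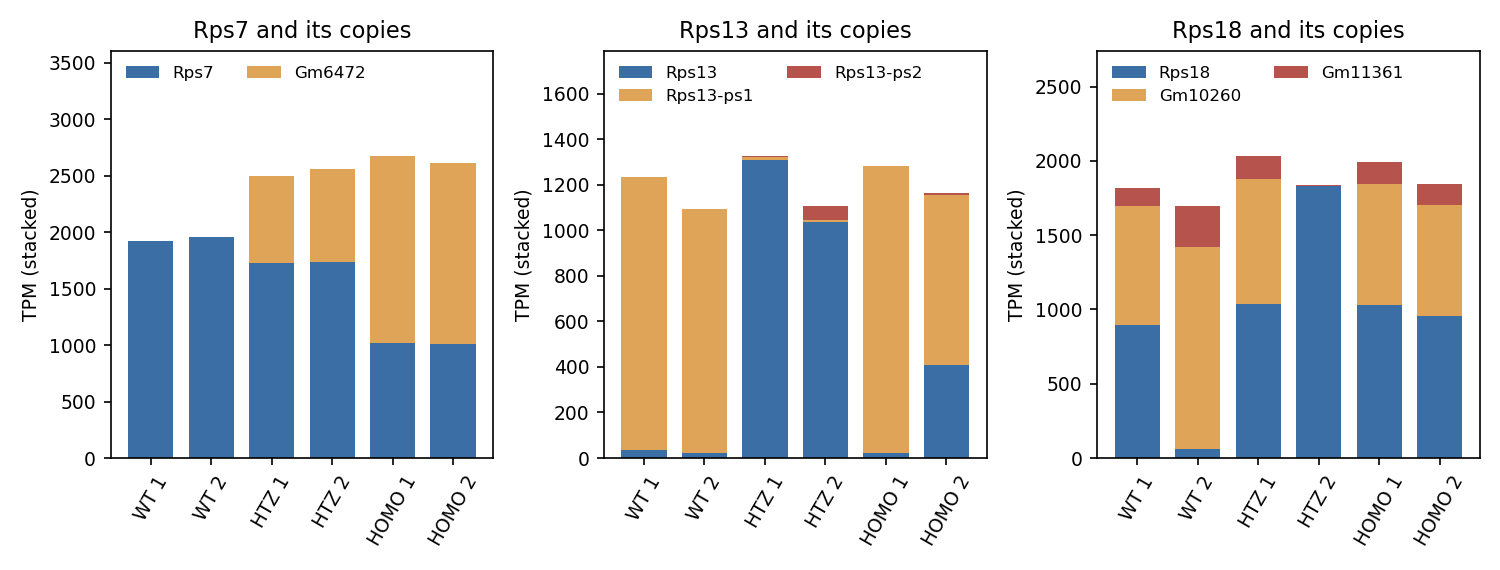
Stacked TPM (y axis, linear, from 0) of Rps7, Rps13 and Rps18 and their main near-identical copies in each of the 6 libraries (x axis). The coloured parts shift between gene and copy from library to library. With all copies added, drawn or not, Rps13 stayed between 1094 and 1327 TPM and Rps18 between 1707 and 2038 TPM.

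Other members were divided with copies that no base in the alignment tells apart. A copy, meaning a transcript at least 95% identical over at least 200 bases, was found for 71 members and not for the other 12. Other members and genes overlapping the member's locus were not counted as copies, and each copy was given to its best-matching member. TPM that may be shared between members was therefore never added. There were 587 such copies in the table, 350 above 0 and 237 at 0 in all libraries. A mean of at least 100 TPM was reached by 17 copies of 16 members, and 13 of these 17 had 0 differences from the gene in the aligned stretch. Copies held most of the TPM of 9 members.

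Rps12, a small subunit protein known from cell competition in Drosophila, was at 124 to 187 TPM, while its identical copy Rps12-ps3 (chr 19) was at 2290 to 3088 TPM, so copies took 93.2% to 95.5% in every library. Rpl12, of the stalk base of the large subunit, was at 50.2 to 55.9 TPM, with 1493 to 1787 TPM under Gm10275. Rpl5, which carries 5S rRNA into the large subunit and can bind Mdm2, was at 105 to 133 TPM, with 918 to 1095 TPM under Gm15500. Rpl27 was at 168 to 265 TPM with 1212 to 1644 TPM under Rpl27-ps3, and Rpl27a at 237 to 310 TPM with 1516 to 1942 TPM under Gm7536. The division of these 5 members was steady: their copy shares ran from 83.3% to 97.1% over all 6 libraries. They therefore appear among the least abundant members in the table, although each reached a mean between 1095 and 2754 TPM with copies added.

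**Figure D2:**
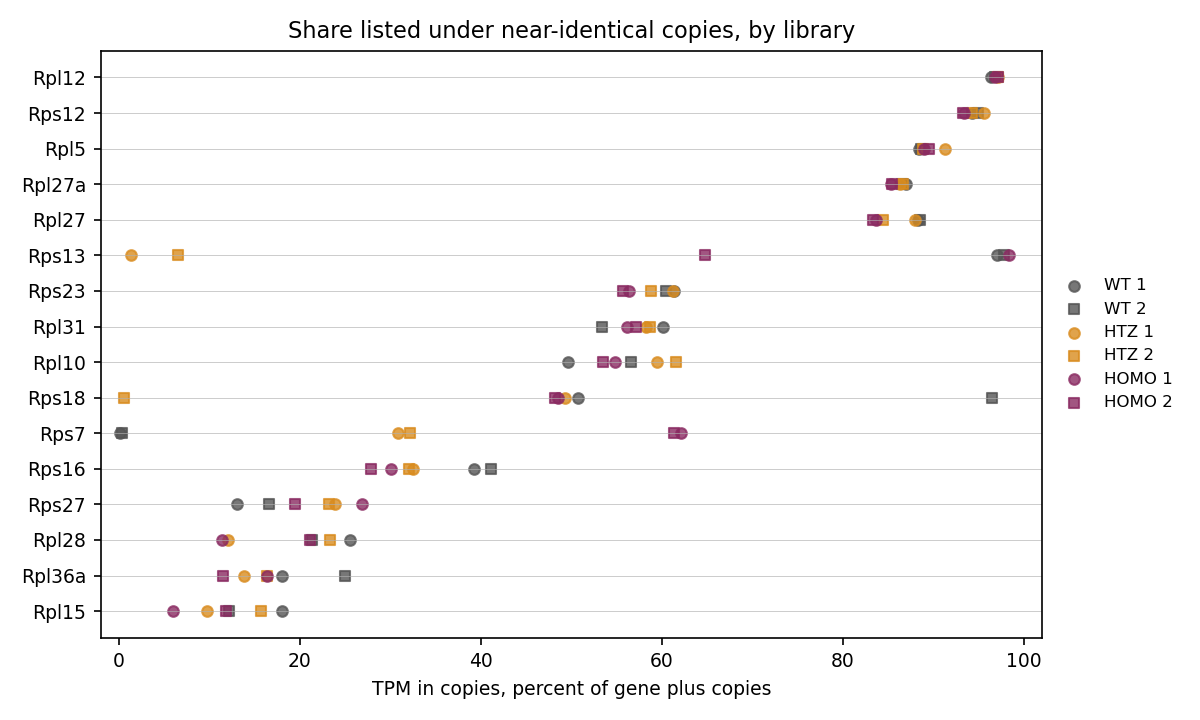
Percent of the combined TPM of a gene and its copies that is listed under copies (x axis) for the 16 members with a copy of at least 100 TPM (y axis), 1 marker per library. Rps13, Rps18 and Rps7 are spread over more than 20 percentage points, and the other 13 over at most 14.2, reached by Rpl28.

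Rps27, a zinc finger protein of the small subunit, differed in that its identical copy Rps27rt, a retrogene annotated as protein-coding, was at 274 and 325 TPM in WT, 599 and 550.5 TPM in HTZ and 663 and 478 TPM in HOMO libraries. Every HTZ and HOMO library exceeded the WT ones, but the differences of 0.94 (limma adjusted p = 0.158) and 0.92 (limma adjusted p = 0.0876) did not pass. Rps27 itself was at 1814.25 and 1629.99 TPM in WT, 1913 and 1814.44 TPM in HTZ and 1801 and 1979.68 TPM in HOMO libraries, so the HTZ libraries lay above WT by a narrow margin and the HOMO libraries overlapped with it. With copies added the differences from WT were 0.27 (SE 0.10, limma adjusted p = 0.321) and 0.28 (SE 0.10, limma adjusted p = 0.208), and all 4 floxed libraries lay above both WT ones.

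Together the members made up 9.85% and 9.15% of all TPM in WT, 11.6% and 10.5% in HTZ, and 10.6% and 10.1% in HOMO libraries. The means were 9.50% ± 0.50, 11.04% ± 0.73 and 10.3% ± 0.37 (SD, n = 2). All 4 floxed libraries lay above both WT ones, and the HTZ and HOMO libraries overlapped. With copies added the shares were 11.4% and 10.6%, 13.3% and 11.98%, and 12.3% and 11.7%, in the same order of groups. Shares of a fixed total cannot tell more ribosomal protein mRNA from less of other mRNA, and in whole tissue, fewer cells of a type and less RNA per cell cannot be told apart.

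**Figure D3:**
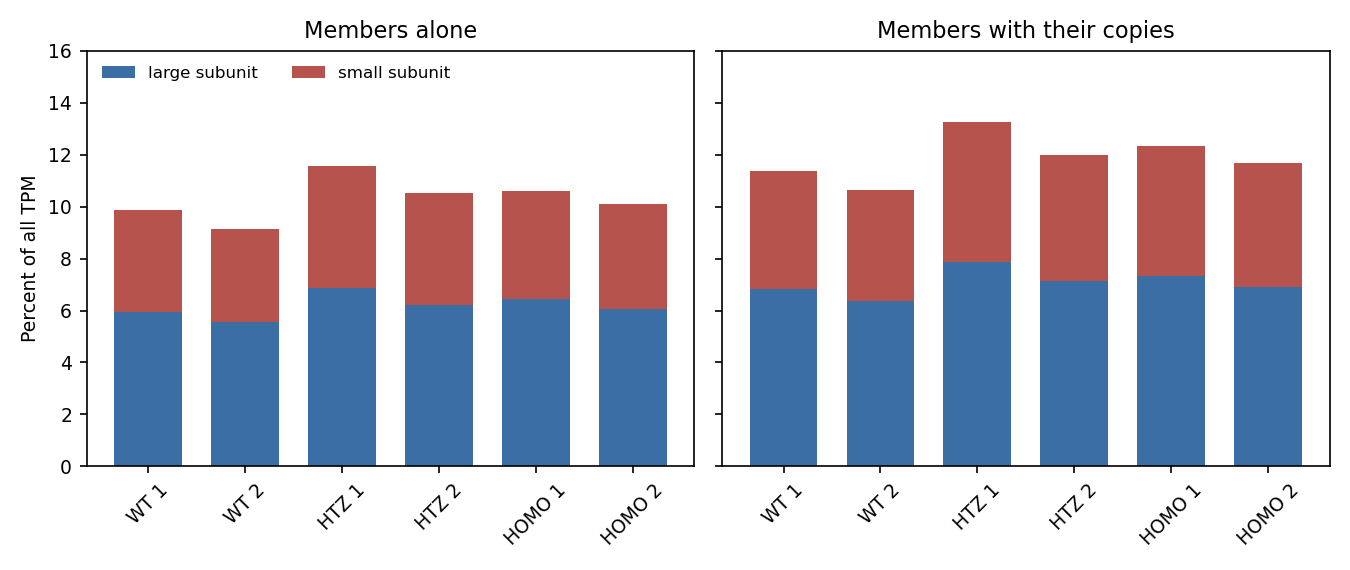
Percent of all TPM (y axis, from 0) held by large and small subunit members in each library, for members alone (left) and with copies added (right). HTZ library 1 has the tallest bar in both panels, at 11.6% and 13.3%.

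Levels of single members were even. Of the 83, 76 had a mean of at least 100 TPM, and the middle of the distribution (25th to 75th percentile) ran from 916 to 1628 TPM in the large and from 926 to 1579 TPM in the small subunit. The highest means were those of Rpl41, the smallest ribosomal protein, at 2981 to 3962 TPM over the libraries, and of Rplp1, an acidic protein of the stalk that recruits elongation factors, at 2845 to 3894 TPM. Next came Rps24, needed for 18S rRNA maturation, at 2952 to 3194 TPM, Rpl23a, at the exit of the peptide tunnel, at 2676 to 3090 TPM, and Rpl13a at 1739 to 2823 TPM. The ranges of Rpl41, Rplp1, Rps24 and Rpl23a overlapped, so their order is not settled by these libraries. With copies added, Rps12 and Rps7 passed Rpl13a, with means of 2754, 2372 and 2313 TPM.

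Rpl6l and Rpl32l were listed at 0 in every library. Among the next lowest were paralogs known from other tissues. Rpl3l, of striated muscle, reached at most 0.34 TPM in a library, and Rpl10l and Rpl39l, of the testis, at most 0.24 and 1.21 TPM. Rps27l, known as a p53 target in human cells, was at 198 to 259 TPM with overlapping genotypes, with a mean of 228 TPM where Rps27 had 1825 TPM. Rps4l, by name a relative of Rps4x, was at 36.7 and 37.8 TPM in WT, 30.5 and 68.4 TPM in HTZ and 73.3 and 57.6 TPM in HOMO libraries. Both HOMO libraries of Rps4l exceeded both WT ones, by 0.79 (SE 0.34, limma adjusted p = 0.284).

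**Figure D4:**
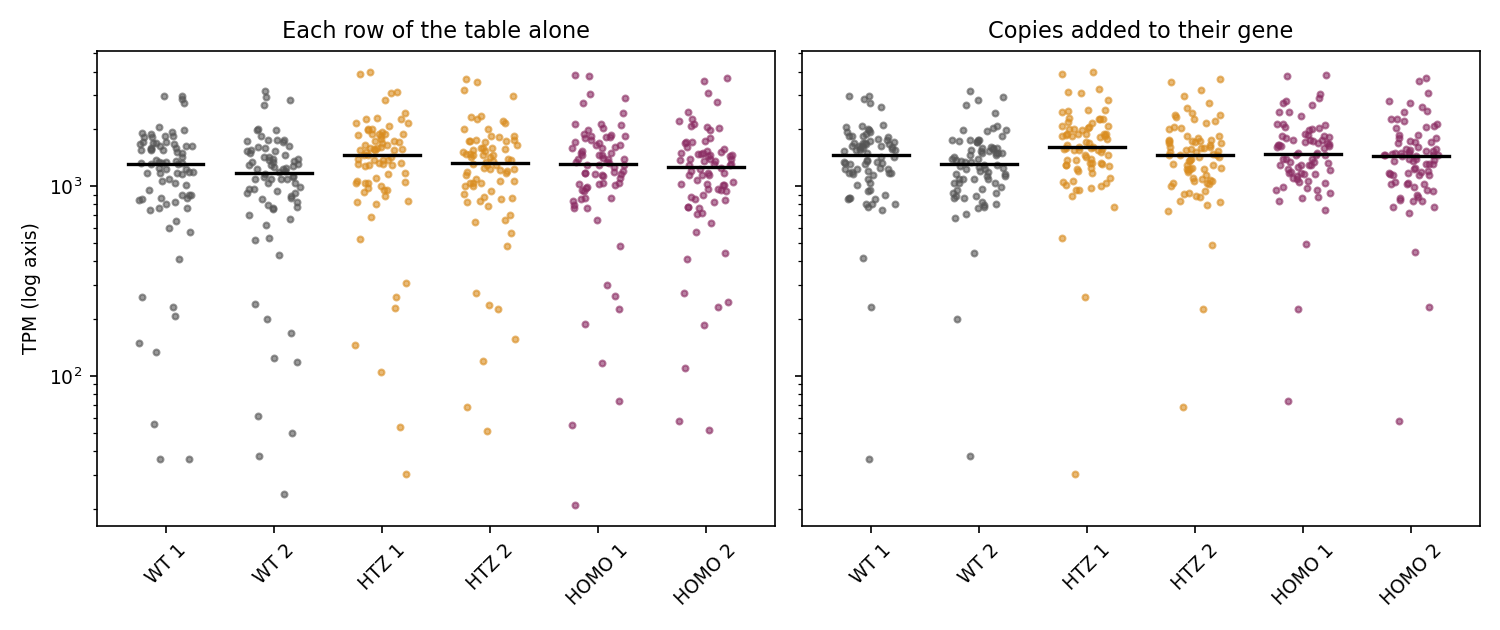
TPM of every tested member (y axis, logarithmic) in each library (x axis), alone (left) and with copies added (right); the black bar is the median. Adding copies lifts most of the low tail; Rps4l at 30.5 to 73.3 TPM and Rps27l at 198 to 259 TPM then form the bottom.

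Large and small subunit members had similar values. The median of the members' mean TPM was 1261 for the large and 1401 for the small subunit, and 1485 and 1432 with copies added. Large subunit members summed to 5.76% ± 0.27 of all TPM in WT, 6.55% ± 0.46 in HTZ and 6.25% ± 0.27 in HOMO libraries (SD, n = 2), and small subunit members to 3.74% ± 0.23, 4.49% ± 0.27 and 4.09% ± 0.10. The ratio of the large to the small subunit sum was 1.52 and 1.55 in WT, 1.47 and 1.45 in HTZ and 1.55 and 1.51 in HOMO libraries. With copies added it was 1.508 and 1.501, 1.45 and 1.48, and 1.46 and 1.45. The HTZ ratios lay below the WT ones by both measures. With copies added the HOMO ratios also lay below the WT ones and overlapped with the HTZ ratios.

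Against WT, HTZ libraries had slightly more of nearly every member, but no single member passed the test. The median log2 difference over the 78 members was 0.19, where that of all 14518 genes was -0.06. The difference was above 0 for 73 members, compared with 40.2% of all genes. In 52 members both HTZ libraries exceeded both WT ones, against 17.1% of all genes, and in 1 member (Rps7) both were lower, against 28.9%. With limma, 0 members had an adjusted p under 0.05, where 0.0276% of all genes were called higher and 0.00689% lower. At an unadjusted p under 0.05, 14 were higher and 0 lower, where the whole table had 6.42% and 7.63%, and without an intensity trend 9 were higher, against 6.32% of all genes. TMM rescaling, which moved the median of all genes to 0.00, gave a member median of 0.26 with 34 members higher at that level, against 8.89% of all genes; 75 of 78 members and 50.5% of all genes were then above 0.

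By subunit the medians were 0.18 for large and 0.21 for small members, with 42 of 46 and 31 of 32 above 0. After Rps13, the smallest unadjusted p values among higher members were those of Rps16, whose tail reaches the decoding site, and of Rps21. Rps16 was at 569 and 521 TPM in WT and 833 and 699.6 TPM in HTZ libraries (0.49, SE 0.11, limma adjusted p = 0.23), and with copies added the difference was 0.31 (SE 0.12). Rps21 was at 1038 and 923 TPM against 1321 and 1238 TPM (0.39, SE 0.10, limma adjusted p = 0.264). Neither pair of groups overlapped. Rplp1, the abundant stalk protein, was at 2866 and 2845 TPM against 3894 and 3531 TPM (0.38, SE 0.11, limma adjusted p = 0.281).

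The 5 members below 0, where 59.8% of all genes were, were Rps7, Rpl5, Rpl10, Rpl7 and Rpl12. Rpl5 differed by -0.16 (SE 0.11, limma adjusted p = 0.527), and Rpl10, which completes the large subunit late in its assembly, by -0.09 (SE 0.17, limma adjusted p = 0.826). With copies added Rpl5 stood at 0.06 and Rpl10 at 0.15, and only Rpl7 remained below 0, at -0.01. The member median was then 0.19 and 77 of 78 were above 0.

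The size of this difference rested partly on HTZ library 1, which also had the most RNA of choroid plexus markers. The 5 choroid plexus markers summed to 11488 TPM there, almost all of it Ttr at 11259 TPM, against 10.3 TPM in HTZ library 2, 6559 and 199.5 TPM in HOMO and 4.78 and 3.62 TPM in WT libraries. Without HTZ library 1 the member median was 0.11 and 68 of 78 were above 0, where 38.7% of all genes were. Without WT library 2 it was 0.14 with 62 above 0, where 36.7% of all genes were. Leaving out HTZ library 1 and HOMO library 1 together kept the median at 0.11, with 54 members higher and 2 lower than both WT libraries; all genes then stood at 27.0% and 46.3%. Under that setting 3 members were called, Rps13, Rps18 and Rps4l, of which Rps13 and Rps18 are divided with copies. Then 210 of 14399 genes were called in the whole table, HTZ and HOMO had 1 library each, and the spread came from the WT pair alone, assuming that the lone libraries vary like it.

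In HOMO libraries most members were again slightly above WT. These libraries were compared with the same WT libraries as the HTZ ones. The member median was 0.12, against -0.04 for all genes, with 64 of 78 above 0 where 44.8% of all genes were. Both HOMO libraries exceeded both WT ones in 37 members, against 23.6% of all genes, and lay below them in 3, against 30.7%. These 3 were Rps7, Rpl5 and Rpl7. Rps7 was the 1 member called, and 0 were called higher, where 0.0207% of all genes were. At an unadjusted p under 0.05, 11 members were higher and 1 lower, where the table had 8.35% and 9.8%, and without an intensity trend 5 were higher, a share of 6.41% against 8.22% of all genes. The medians of large and small members were 0.11 and 0.13, with 36 of 46 and 28 of 32 above 0. After TMM rescaling 73 of 78 were above 0, against 53.3% of all genes.

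The members with the smallest unadjusted p among those above WT were Rps12, Rpl27 and Rps16. Rps12 was at 148 and 124 TPM in WT and 187 and 186 TPM in HOMO libraries (0.46, SE 0.11, limma adjusted p = 0.122). Rpl27, mutated in some human cases of Diamond-Blackfan anaemia, was at 205 and 168 TPM against 265 and 243 TPM (0.45, SE 0.12, limma adjusted p = 0.142). Rps16 was at 569 and 521 TPM against 761 and 711 TPM (0.43, SE 0.11, limma adjusted p = 0.145). All 3 have identical abundant copies: with these added the differences were 0.15 for Rps12, -0.06 for Rpl27 and 0.19 for Rps16. Rplp1, which has no copy above 1 TPM in any library, kept its difference of 0.40 (SE 0.11, limma adjusted p = 0.15).

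Below WT, Rpl7 was at 1580 and 1382 TPM against 1337 and 1349 TPM (-0.14, SE 0.10, limma adjusted p = 0.502), and Rpl5 differed by -0.14 (SE 0.11, limma adjusted p = 0.505), or by -0.05 with copies added. The member median was 0.06 without HOMO library 1, with 58 of 78 above 0, and 0.06 without WT library 2, with 53 above 0. Of all genes, 46.5% and 39.9% were then above 0. Without HOMO library 1 and HTZ library 1 together, 40 members were higher and 7 lower than both WT libraries, against 35.8% and 40.2% of all genes.

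**Figure D5:**
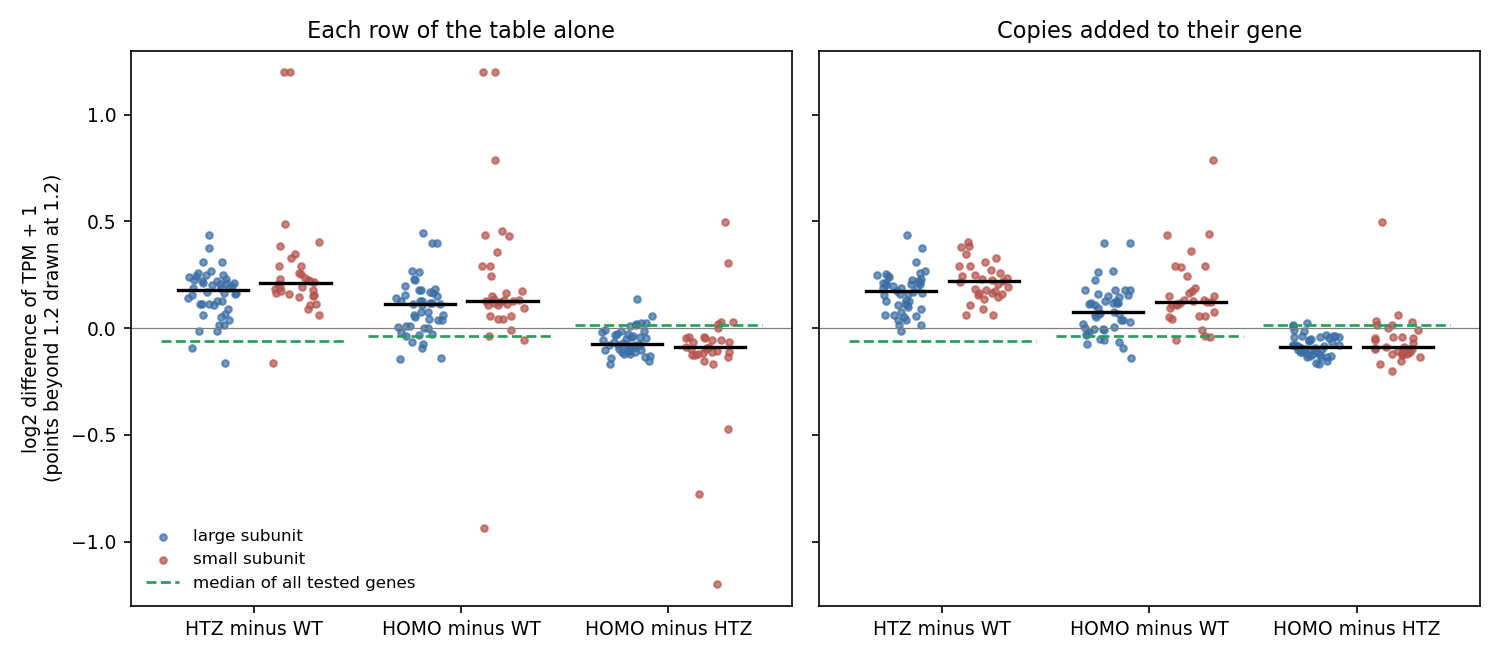
Difference on the log2(TPM + 1) scale (y axis; values past 1.2 are drawn at the edge) for each tested member in the 3 comparisons, by subunit, alone (left) and with copies added (right). Black bars are subunit medians and green dashes the median of all tested genes; with copies added the points far from the rest disappear, other than Rps4l at 0.79 and 0.50.

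Between HOMO and HTZ libraries no member passed the test. The member median was -0.08, against 0.01 for all genes, and 13 of 78 were above 0, where 54.1% of all genes were. In 22 members both HOMO libraries were lower and in 2, Rps12 and Rpl27, both were higher, against 13.7% and 15.3% of all genes. With copies added Rps12 stood at -0.10 and Rpl27 at -0.13. With limma 0 members were called, where 0.00689% of all genes were called in each direction. At an unadjusted p under 0.05, 1 was higher and 2 were lower, where the table had 1.14% and 0.902%, and without an intensity trend 0 were higher and 2 lower. Without HTZ library 1 the median was 0.0044 and 43 of 78 were above 0. Without HTZ library 1 and HOMO library 1 together it was -0.05 and 22 of 78 were above 0. Large and small members had medians of -0.08 and -0.09. Rpl17, a protein of the peptide tunnel exit, was at 1725 and 1589 TPM in HTZ and 1535 and 1443 TPM in HOMO libraries (-0.15, SE 0.10, limma adjusted p = 1.0).

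Libraries of 1 genotype lay closer together in members than in all tested genes. The median absolute log2 gap between the 2 libraries of a genotype was 0.14 in WT, 0.15 in HTZ and 0.10 in HOMO tissue for members, and 0.20, 0.18 and 0.14 for all tested genes. The tested genes reach down to a mean of 1 TPM. No set of genes at a level like the members' was compared for this gap. The gap between libraries of a genotype was of a size with the member medians above. Other properties that members share were set beside these differences. Their median coding length was 456 bases, against 1407 for all tested genes. The 2395 other genes with a coding sequence under 700 bases had medians of 0.05 in HTZ and 0.04 in HOMO libraries against WT, with 57.7% and 56.3% above 0. The 88 other short genes averaging 500 TPM or more had medians of 0.06 and 0.05. The members' 0.19 and 0.12 lay above both sets, and that gap was not tested.

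Markers of other cells were present beside the labelled tissue. The 9 progenitor and dentate lineage genes, among them Sox2, Pax6, Neurod1 and Prox1, were above 0 in every library and summed to 1398 and 977 TPM in WT and 822 to 836 TPM in the other 4. The 6 microglia markers were each above 0 and summed to 132 and 154 TPM in WT, 319 and 220 TPM in HTZ and 264 and 278 TPM in HOMO libraries. The 5 markers of mature neurons and glia summed to 561 and 831 TPM, 654 and 1008 TPM, and 909 and 1622 TPM, with the astrocyte gene Gfap at 268 to 576 TPM in tissue labelled E14. The 5 erythroid genes summed to 235 to 443 TPM, and the embryonic globin Hbb-y was at 0 in all 6. The part of microglia, mature brain and dentate lineage RNA in the members' differences was not tested. In none of these 5 lists was a gene called by limma against WT; 0 passed, and the smallest adjusted p was 0.0618.

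Other genes of the ribosome's supply line were counted against WT in the same way, where 59.8% and 55.2% of all genes lay below WT in HTZ and HOMO libraries, or 49.5% and 46.7% after TMM rescaling. No difference between a list and the members was tested. Of 61 tested genes that process rRNA and assemble subunits, 55 lay below WT in HTZ and 55 in HOMO libraries, with medians of -0.17 and -0.19. Ncl, the nucleolar protein nucleolin, was at 293 and 292 TPM in WT, 246 and 249 TPM in HTZ and 241 and 240 TPM in HOMO libraries (HOMO -0.28, SE 0.08, limma adjusted p = 0.157). Npm1, another nucleolar protein, was at 590 and 550 TPM, 502 and 464 TPM, and 480 and 447 TPM. Nop56, of the box C/D snoRNPs that methylate rRNA, was at 136 and 143 TPM against 104 and 115 TPM in HTZ libraries (-0.35, SE 0.09, limma adjusted p = 0.259). The direction held with TMM rescaling, with 51 and 47 of 61 then below 0, and without HTZ library 1 and HOMO library 1, with 55 and 53.

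The 17 genes of rDNA transcription by RNA polymerase I had 13 and 12 below WT, with medians of -0.04 and -0.10; after TMM rescaling 8 and 11 were below, and the first median was 0.02. Top1, a topoisomerase, was at 107 and 99.0 TPM in WT and 80.0 and 74.7 TPM in HOMO libraries (-0.41, SE 0.09, limma adjusted p = 0.119). Of 18 genes that control growth signalling to these mRNAs, 16 and 14 lay below WT (14 and 13 after TMM rescaling), with medians of -0.19 and -0.16. The list mixes positive and negative regulators, so its counts give no direction of signalling. Akt1 (HOMO -0.30, SE 0.08) and the inhibitor Tsc1 (HOMO -0.37, SE 0.12) both lay below WT. Mycn, a growth-promoting transcription factor of progenitors, was at 91.3 and 67.7 TPM in WT, 53.9 and 50.6 TPM in HTZ and 50.2 and 49.5 TPM in HOMO libraries (HOMO -0.65, SE 0.15, limma adjusted p = 0.119). Of 37 translation initiation genes, 27 and 30 lay below WT (19 and 24 after TMM rescaling), with medians of -0.08 and -0.11. Eif4g2 was at 918 and 796 TPM in WT and 680 and 671 TPM in HOMO libraries (-0.34, SE 0.10, limma adjusted p = 0.165).

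The 13 tested translation elongation genes, a list that also holds Tpt1, were divided. In HTZ libraries 8 lay above and 5 below WT, and in HOMO libraries 6 above and 7 below. After TMM rescaling 9 and 7 lay above. Of all genes, 40.2% and 44.8% lay above WT, or 50.5% and 53.3% after TMM rescaling. Tpt1, itself a well-known pyrimidine-tract mRNA, was at 2483 and 2396 TPM in WT, 3076 and 2824 TPM in HTZ and 2865 and 2938 TPM in HOMO libraries (HTZ 0.27, SE 0.10, limma adjusted p = 0.331). Of the 9 tested genes of the p53 response to surplus ribosomal proteins, 4 lay above and 5 below WT in both comparisons, or 5 above in HOMO libraries after TMM rescaling; Trp53 was at 93.1 and 63.6 TPM against 58.7 and 54.8 TPM in HTZ libraries, and its target Cdkn1a at 15.6 and 14.5 TPM against 29.4 and 18.9 TPM. The 78 tested mitochondrial ribosomal protein genes, which serve a separate ribosome, had medians of 0.05 and 0.04, with 54 and 42 above 0, or 65 and 58 after TMM rescaling. Of all these lists limma called 0 genes, with smallest adjusted p values from 0.119 to 0.348 against WT.

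Among ribosomal proteins whose symbols the rule leaves out, Rpl22l1, a paralog of Rpl22, was at 282 and 306 TPM in WT, 397 and 368 TPM in HTZ and 408 and 374 TPM in HOMO libraries (HOMO 0.41, SE 0.10, limma adjusted p = 0.119). All 4 floxed libraries exceeded both WT ones. Rps3a1 was at 776 to 918 TPM, the small subunit protein Rack1 at 753 to 888 TPM, Fau at 291 to 359 TPM, Rpl36al at 357 to 418 TPM and Rpl7l1 at 57.7 to 73.3 TPM, each with HTZ and HOMO ranges that overlapped the WT range.

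Some sequence features that the rule did not use were more frequent in the promoters of members than in those of all genes. RefSeq promoters (GRCm38.p6) were matched for 57 of the 78 tested members and not for the other 21. The comparison set was not limited to the genes tested here. From 50 bases before to 30 after the start, CTTCC, the core of ETS factor sites, occurred on either strand (as CTTCC or its reverse complement GGAAG) in 34 of 57 members, 59.6%, and in 34.7% of the 27025 genes of the promoter table. A run of at least 8 pyrimidines on the gene's strand, which can overlap CTTCC, was present in 38 of 57, 66.7%, against 33.6%. TATAAA was present in 3 of 57, 5.26%, against 3.72%. Rps7 and Rps18 are shown as examples from 50 bases before to 30 after the start, with the motif in capitals, first on chr12:28635924-28636003 and then on chr17:33955636-33955715, both from the minus strand:
Rps7: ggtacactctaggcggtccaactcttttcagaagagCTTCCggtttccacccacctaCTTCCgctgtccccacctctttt
Rps18: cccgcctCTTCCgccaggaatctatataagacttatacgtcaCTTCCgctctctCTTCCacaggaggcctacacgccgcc
Each holds the motif more than once, and a match of letters describes the sequence only.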

How the data were processed

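The deposited table gives TPM for 35274 genes, and the authors' values total 1000000 in every library. The design text in the labels names TopHat 2.0.11 (genome mm10) and Cufflinks 2.2.1, whereas FastQC and RSEM appear in the submitters' processing notes. How reads matching several genes were assigned is not given in the sources used here. TPM keeps no read depth, so depth is unknown and no counting interval was computed.

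Values were used as log2(TPM + 1), which understates changes of low genes. Genes averaging 1 TPM or more were fitted with limma 3.58.1 in R 4.3.3 (a term per genotype, all 6 libraries, 3 residual degrees of freedom, eBayes with trend) and adjusted over all 14518 genes at 0.05. The fit was also run on simulated data with the same spread for every gene. That run cannot show how the fit behaves where spread differs between genes, as it does here. TMM factors (trimmed means of log ratios) were computed from the TPM columns. Copies were found with BLAST 2.17.0 among GENCODE vM21 transcripts on GRCm38 (34924 rows matched), at 95% identity over 200 bases, or 98% as an alternative, and their TPM was added to the gene's. Other members, and genes overlapping the gene's locus, were not added. Sums of TPM depend on the transcript lengths behind them, which the deposited table does not give, so they are not a direct measure of RNA.

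The members and all 13 gene lists were chosen with earlier results of these data known. Members named in full were Rps7, Rps13, those called, the 3 with the smallest p in each direction per comparison, the 5 highest and 5 lowest means, and known paralogs; other members are named as further examples, chosen after their values were seen. Copies named were the highest of a described member, and up to 3 genes were named per list, beside ribosomal genes outside the rule and markers named to describe a list. Errors of TPM are SD over 2 libraries, and those of log2 differences are limma's SE. Alternatives, 18 in number, changed the pseudocount (0.1, 5), filter (none, 5 TPM), scaling, trend, block, libraries and copies. Counts without the 2 libraries with the most Ttr, and list counts after TMM rescaling, were added after seeing the data. Sequences of genes on mouse chromosome 18 are not shown. A result on 1 gene list, which needs an item that is not reported here, was left out.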

Additional observations from a re-analysis of the deposited data

How the results depend on the processing

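The member medians kept their sign under all 18 alternatives in heterozygous and in homozygous libraries against wild type, from 0.11 to 0.27 and from 0.06 to 0.18; the median of homozygous against heterozygous ran from -0.15 to 0.0044, the latter without heterozygous library 1. TMM rescaling moved the median of all genes by less than 0.1. The count of called members was less settled. Against wild type, heterozygous libraries had 0 called, but 1 of 78 when only those 2 genotypes were fitted, where 6 of 14466 genes were called. Homozygous libraries had 1 called (Rps7), but 0 with no filter, TMM rescaling or rescaling without Ttr and mitochondrial transcripts. The count was also 0 without an intensity trend or with copies added at either identity. With only the 2 genotypes fitted it was 2 of 78, where 396 of 14490 genes were called. Homozygous against heterozygous libraries had 0 called, where 2 of 14518 genes were. Leaving out libraries moved these counts too, and those fits leave 1 library in a genotype. The gap between the large and small subunit medians in homozygous libraries was -0.0180, -0.0555 without the 2 libraries with the most Ttr, and -0.0562 to -0.0180 without single libraries.

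With copies added the sign reversed at 95% and at 98% identity. Rps7 became 0.38 and 0.38 for heterozygous and 0.44 and 0.44 for homozygous libraries against wild type, and 0.0619 and 0.0626 for homozygous against heterozygous. Rpl10 became 0.15 and 0.15 and Rpl5 0.0581 and 0.0585 for heterozygous against wild type. Rpl27 became -0.0555 and -0.0555 for homozygous against wild type and -0.13 and -0.13 against heterozygous, where Rps12 became -0.10 and -0.10 and Rps13 0.0138 and 0.0138. Rps4l became -0.24 for homozygous against heterozygous without the 2 libraries with the most Ttr. Without single libraries, Rpl10 ran from -0.30 to 0.11 (heterozygous against wild type), Rps13 from -0.47 to 3.76 and Rps13-ps1 from -0.60 to 0.16 (homozygous against wild type), and Rps4l from -0.0728 to 1.07 (homozygous against heterozygous). Beyond the added copies, the cause of these moves was not tested.

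Deviations of same-numbered libraries correlated at 0.21 (wild type and heterozygous), -0.09 (wild type and homozygous) and 0.35 (heterozygous and homozygous); since not every pair exceeded 0.1, the numbers were not taken to pair libraries. With the replicate number as a block, members called stayed at 0, 1 and 0, and the median differences at 0.19, 0.12 and -0.08. Members higher at an unadjusted limma p under 0.05 were 40, 16 and 1 instead of 14, 11 and 1. As shares these were 51.3%, 20.5% and 1.28% of members, against 8.19%, 11.3% and 3.04% of all genes. At a limma adjusted p under 0.05, calls over all genes were 9, 283 and 2 instead of 5, 6 and 2.

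Calls over all genes, 5, 6 and 2 in the order above, were 49, 149 and 2 with a pseudocount of 0.1, 3, 7 and 2 when it was 5, 1, 3 and 1 when low genes were kept, 6, 396 and 2 with only the 2 genotypes, 2, 3 and 1 with copies added, and 210, 713 and 45 once both Ttr-rich libraries were dropped. Gm6472 in heterozygous libraries had a limma adjusted p of 0.0519 with no filter (0.00171 with the filter). Without single libraries they ran from 3 to 391, from 3 to 395 and from 1 to 5. TPM carries no read depth, so what depth limits here is unknown.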
